A study of Homo sapiens with 6 samples.

Results

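The aminoacyl-tRNA synthetases, the enzymes that load each tRNA with its amino acid, were followed in SH-SY5Y cells with reduced PSF. Members were the protein-coding genes whose symbol is a 1-letter amino acid code followed by ARS, with or without a 1 or a 2, together with FARSA, FARSB and EPRS1. The rule found 37 genes among the 21301 genes of the table, of which 14644 were protein-coding, and no measured value entered it. Described here are 35 of them, which by symbol comprise 19 genes for cytosolic enzymes (no number or a 1, FARSA, FARSB) and 16 for mitochondrial enzymes (a 2).

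SH-SY5Y is a human neuroblastoma line, and PSF, an RNA-binding protein of the nucleus, is the product of the SFPQ gene. Cells were treated for 72 h with a single siRNA against PSF at 10 nM (siPSF) or with a control siRNA at 10 nM (siControl), and poly(A) RNA was sequenced as 3 libraries per group. Both groups were otherwise untreated cells of the same line, so every value stands for whole cultures, where fewer cells of a type and less RNA per cell cannot be told apart. The question that the study put to these libraries was which genes depend on PSF.

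Charging is the step that fixes the meaning of the genetic code, because the ribosome reads the tRNA and not the amino acid on it. A human cell needs separate sets of enzymes for the cytosol and for the mitochondrion, all of them encoded in the nucleus, and most amino acids have a gene for each. Some cytosolic synthetases are held together in a large multisynthetase complex on the scaffold proteins AIMP1, AIMP2 and EEF1E1. GARS1 and KARS1 make both the cytosolic and the mitochondrial enzyme, and no mitochondrial gene is named for glutamine, since mitochondria charge that tRNA with glutamate and convert it.

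The libraries held between 101540520 and 132420931 counts. Scaled by TMM in edgeR, they appear here as CPM, the count for a library brought to a fixed size, which compares 1 gene between libraries, while levels of different genes are compared as FPKM, which is also divided by exon length. All 35 synthetase genes passed the filter on low counts, and their counts ran from 735 to 115491 per library. The part of read sampling in the spread between libraries was not separated, and it weighs most in the genes with the lowest counts. Among the cell type markers, 12 of 13 neuroblastoma genes lay at 1 FPKM or more and TH was near 0 at 0.144 FPKM. Of these 13, DBH (log2 -0.68), ELAVL4 (-0.46) and TH (-1.20) were called lower and GATA3 (0.30) higher, and the list summed to between 2278 and 2510 FPKM in siControl and between 1994 and 2450 FPKM in siPSF. In the siControl libraries the 7 fibroblast markers summed to between 15.5 and 20.5 FPKM, and in the siPSF libraries to between 12.7 and 13.1 FPKM. The 3 epithelial markers in the table summed to between 1.15 and 1.44 FPKM in siControl and to between 1.62 and 2.54 FPKM in siPSF, with EPCAM (log2 0.86) called higher. The part of these lists in the results was not tested. SFPQ itself stood at 372, 356 and 401 CPM in siControl and at 209, 193 and 165 CPM in siPSF, which is 50.2% of the control level (log2 fold change -0.99, SE 0.10, adjusted p = 9.5e-05). Adjusted p-values in edgeR are those of its quasi-likelihood test after Benjamini-Hochberg adjustment over all genes tested.

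After PSF knockdown, 4 synthetase genes rose, 1 fell and 30 did not pass the test at an adjusted p under 0.05. QARS1, RARS1 and EPRS1, which charge glutamine, arginine, and glutamate with proline in the cytosol, rose. CARS2, the mitochondrial cysteine enzyme, rose as well, and NARS2, the mitochondrial asparagine enzyme, fell. Over all 19694 genes tested, 6.65% were called higher and 8.27% lower. The median log2 fold change of the 35 genes was 0.09, against 0.01 over all genes tested and 0.05 over protein-coding genes under 100 kb. Of the 35 genes, 26 (74.3%) had a positive value, as had 51.6% of all genes tested and 58.2% of those shorter protein-coding genes. The count of called synthetase genes was 2 without siControl replicate 1 or siPSF replicate 1. It was 3 without siControl replicate 2, siPSF replicate 2 or siPSF replicate 3, and 4 without siControl replicate 3. Each of these fits also has fewer libraries, so the part of a single library and that of the smaller sample cannot be told apart.

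**Figure D1:**
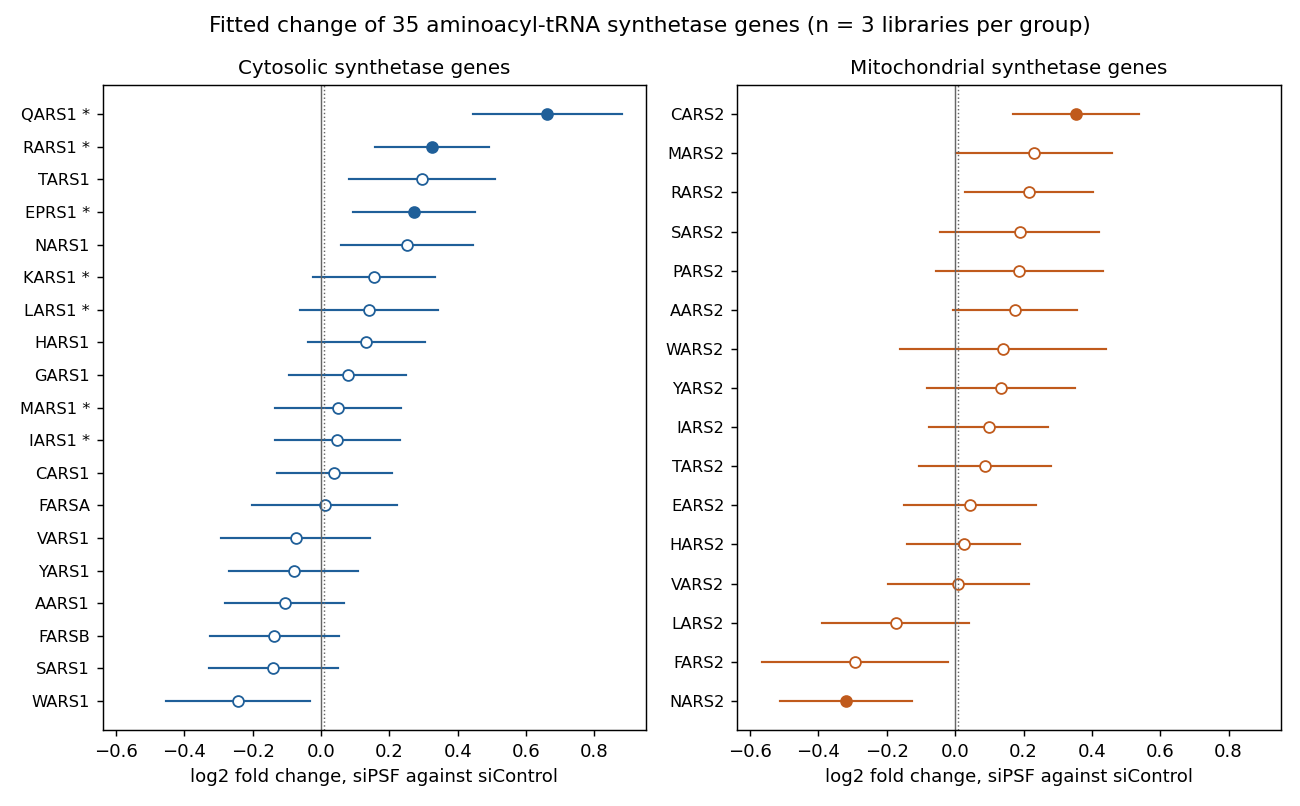
Fitted log2 fold change of siPSF against siControl (x axis) for 19 cytosolic genes (left) and 16 mitochondrial genes (right), with 95% confidence intervals from edgeR. Filled points passed an adjusted p under 0.05, asterisks mark genes of the multisynthetase complex, the dotted line is the median of all genes tested, and each called cytosolic gene carries an asterisk.

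QARS1 showed the largest change of the 35 genes. Its level was 155, 176 and 155 CPM in siControl and 227, 254 and 287 CPM in siPSF. Every siPSF library lay above every siControl library, and the siPSF libraries were spread more widely than the controls. The fitted rise was 1.58-fold (log2 0.66, SE 0.10, 95% interval 0.44 to 0.88, adjusted p = 0.0012, edgeR's quasi-likelihood test), and QARS1 remained higher and called without any 1 of the 6 libraries and under each other setting tried. The gene lies at chr3:49095932-49104757 (GRCh38.p14) on the minus strand, is only 8.83 kb long, and is a class I enzyme, the class whose catalytic domain has the Rossmann fold.

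RARS1 stood at 117, 120 and 123 CPM in siControl and at 153, 144 and 154 CPM in siPSF. The groups were tight and well apart. It rose 1.25-fold (log2 0.33, SE 0.08, adjusted p = 0.015, edgeR), with the call lost without siControl replicate 1, siControl replicate 2 or siPSF replicate 1 (highest adjusted p = 0.069, edgeR). EPRS1, a fusion of the glutamate and the proline enzymes in 1 polypeptide, stood at 333, 317 and 353 CPM in siControl and at 418, 389 and 403 CPM in siPSF. Its groups did not overlap either, but the rise was the smallest among the called genes at 1.21-fold (log2 0.27, SE 0.08, adjusted p = 0.043, edgeR). That call was the least stable: it held in 1 of the 6 fits that left out a library (highest adjusted p = 0.18, edgeR, without siControl replicate 2) and was lost on FPKM and without the filter on low counts.

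CARS2 stood at 48.2, 50.9 and 47.7 CPM in siControl and at 58.6, 64.3 and 64.7 CPM in siPSF, again without overlap. The rise was 1.28-fold (log2 0.35, SE 0.08, adjusted p = 0.016, edgeR), and the call was lost without siPSF replicate 2 (log2 0.33, adjusted p = 0.052, edgeR). CARS2 lies at chr13:110641410-110713522 and shares 900 bases with ING1 on the other strand. ING1 averaged 21.5 CPM in siControl and 20.2 CPM in siPSF, and since the counting is not stated to use strand, reads of the shared stretch cannot be assigned to either gene.

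NARS2 stood at 42.7, 38.0 and 41.7 CPM in siControl and at 33.9, 32.3 and 31.9 CPM in siPSF. Each siPSF library was below each control library. The level fell to 0.801 of control (log2 -0.32, SE 0.09, adjusted p = 0.031, edgeR), and the call held in only 1 of the 6 fits without a library, although it held on FPKM with either pseudocount. NARS2 lies at chr11:78435968-78574864 and is overlapped over 25390 bases by NARS2-AS1 on the other strand, a transcript that was not analysed here.

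**Figure D2:**
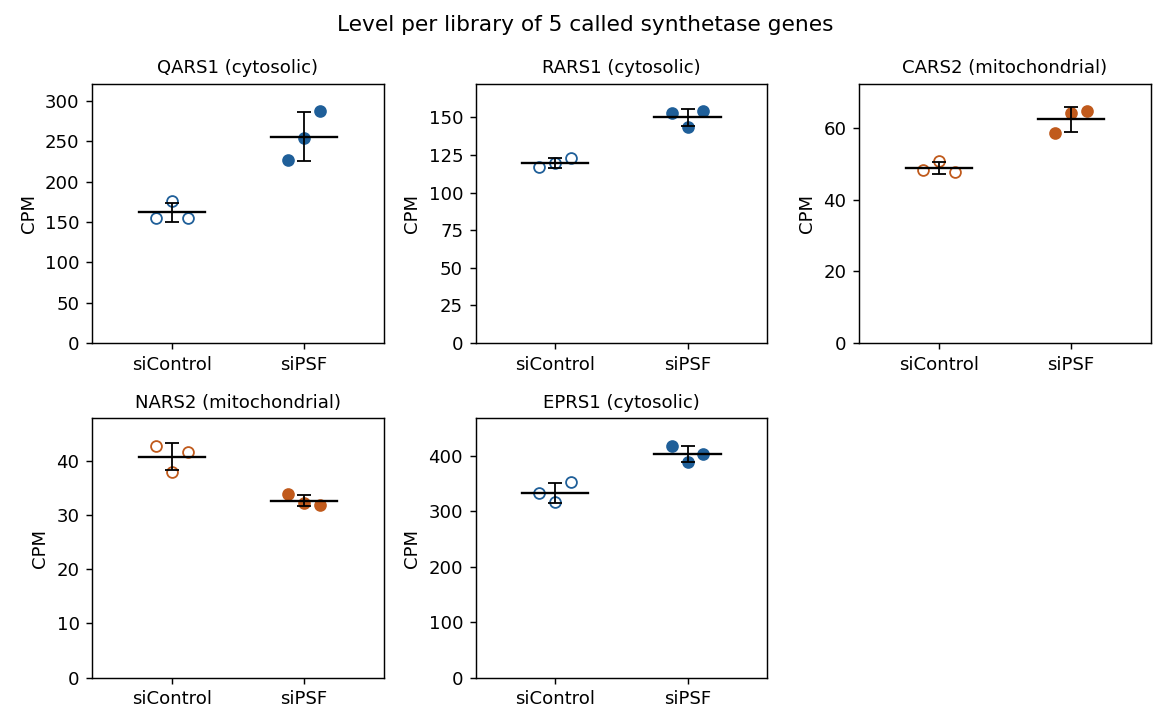
CPM (y axis, from 0) in each library of the 5 called genes, with open points for siControl, filled points for siPSF, and bars for the mean and SD of 3 libraries. In each panel the groups do not overlap, and NARS2 is the gene with the siPSF points below the control points.

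The 30 remaining genes had log2 fold changes between -0.29 and 0.30. The nearest to the threshold were TARS1 for threonine (0.30, adjusted p = 0.062, edgeR) and NARS1 for asparagine (0.25, adjusted p = 0.077, edgeR), both cytosolic. On the other side stood the cytosolic tryptophan enzyme WARS1 (-0.24, adjusted p = 0.12, edgeR) and the mitochondrial phenylalanine enzyme FARS2 (-0.29, adjusted p = 0.14, edgeR). Of the 35 genes, 17 had groups of CPM values that did not overlap, 12 of them with siPSF above and 5 with siPSF below, where 34.4% of all genes tested did not overlap. An unadjusted p under 0.05 was reached by 11 genes, which is 31.4% of the 35, and by 29.8% of all genes tested.

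The direction of the family depends on the measure and on how libraries are scaled. On FPKM as deposited (limma, pseudocount 0.5), the median log2 fold change was -0.059 over all genes, -0.025 for cytosolic and 0.028 for mitochondrial genes. When FPKM values were rescaled to give each library an equal sum, these medians were -0.16, -0.14 and -0.08. Both sets were then negative, while staying 0.02 and 0.08 above all genes. Under that scaling QARS1 alone was called higher and 10 synthetase genes were called lower: AARS1, CARS1, FARS2, FARSB, LARS2, NARS2, SARS1, VARS1, WARS1 and YARS1. Over all genes, limma called 736 higher and 1782 lower (70.8% lower) on FPKM as deposited. On rescaled FPKM it called 463 higher and 3409 lower (88.0% lower). The edgeR fit on counts scaled by TMM, a different test over more genes, called 1310 higher and 1628 lower (55.4% lower).

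All called cytosolic genes belong to the multisynthetase complex. Of 7 synthetases of the complex (EPRS1, IARS1, KARS1, LARS1, MARS1, QARS1 and RARS1), 3 rose and 4 did not pass the test. The share called higher over all genes tested was 6.65%. Each of the 7 had a positive log2 fold change, with a median of 0.16, whereas 5 of 7 were positive on FPKM (median 0.07) and 3 of 7 on rescaled FPKM (median -0.04), where QARS1 was the only one called higher. Those of the complex that were not called stood at 0.16 for KARS1 (lysine), 0.14 for LARS1 (leucine), 0.05 for MARS1 (methionine) and 0.05 for IARS1 (isoleucine), with the groups of KARS1 not overlapping. Among the 12 cytosolic genes outside the complex none was called by edgeR with all libraries and no block. Of these 12, 3 (25%) had an unadjusted p under 0.05, against 29.8% of all genes tested. Their log2 fold changes were split evenly into 6 positive and 6 negative values around a median of -0.03, which was -0.10 on FPKM and -0.22 on rescaled FPKM. DESeq2's Wald test called TARS1 among these 12.

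Summed over the 7 synthetases of the complex, the level was 2165, 2154 and 2170 CPM in siControl (2163 ± 8.45, mean ± SD, n = 3) and 2444, 2472 and 2459 CPM in siPSF (2459 ± 13.8), a difference of 13.7%. The sum over the 12 other cytosolic genes was 4734, 4750 and 4503 CPM in siControl and 4622, 4735 and 4399 CPM in siPSF. The first sum did not overlap between the groups, and the second sum did. In siControl every member but RARS1 (SD 3.21 CPM) had a larger SD than the first sum, from 12.2 CPM for QARS1 to 26.2 CPM for IARS1. The SD of that sum over 3 libraries is therefore a poor gauge of its spread. QARS1 alone averaged 162 CPM in siControl and 256 CPM in siPSF. No test was run on either sum, since the complex was set apart with earlier results of these libraries known.

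The scaffold proteins of the complex were measured beside it. AIMP1, also known as p43, rose from 35.7, 32.1 and 37.5 CPM in siControl to 49.7, 42.7 and 43.1 CPM in siPSF (log2 0.36, SE 0.10, adjusted p = 0.028, edgeR), a call that held in 3 of the 6 fits without a library. AIMP2 had a log2 fold change of -0.11 and EEF1E1 one of 0.18, and neither passed the test. Counting scaffold and synthetases together, 4 of 10 genes of the complex were higher, where 6.65% of all genes tested were called higher. The list was chosen with earlier results known, and this number was 1 without siControl replicate 1, siControl replicate 2 or siPSF replicate 1.

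The cytosolic and mitochondrial sets lay close together in their medians. The cytosolic genes gave 3 higher and 0 lower calls in edgeR with a median log2 fold change of 0.05 and 6 genes at an unadjusted p under 0.05. The mitochondrial genes gave 1 higher and 1 lower call, a median of 0.12, and 5 genes at an unadjusted p under 0.05. An unadjusted p under 0.05 was thus reached by 31.6% of the cytosolic and 31.25% of the mitochondrial genes, near the 29.8% of all genes tested. Over all genes tested, 6.65% were called higher and 8.27% lower, with a median of 0.01. DESeq2's Wald test called no cytosolic gene lower either, whereas limma called WARS1 lower on FPKM and 7 cytosolic genes lower on rescaled FPKM. The mitochondrial median was above the cytosolic one by 0.07 on the log2 scale, and taken library by library against the control mean the difference was 0.028, 0.0084 and 0.046 in siPSF and -0.00094, -0.0070 and 0.016 in siControl, so the groups overlapped. The cytosolic genes summed to 6825 ± 132 CPM (SD, n = 3) in siControl and 7044 ± 175 CPM in siPSF, and the mitochondrial genes to 715 ± 15.2 CPM and 756 ± 7.85 CPM. The 35 genes together made up 0.754% ± 0.015 of the scaled counts in siControl and 0.780% ± 0.018 in siPSF.

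The structural classes of the enzymes also had medians close to each other. EPRS1 has a domain of each class and was left out. Of 18 class I genes, 3 were higher and 14 had a positive log2 fold change, with a median of 0.07. Among 16 class II genes, whose catalytic domain is built on an antiparallel sheet, 0 were higher in edgeR (4 had an unadjusted p under 0.05, and DESeq2's Wald test called TARS1 higher), 1 was lower and 11 were positive, with a median of 0.08. Over all genes tested, 6.65% were called higher, 8.27% were called lower and 51.6% were positive. An unadjusted p under 0.05 was reached by 33.3% of class I, 25% of class II and 29.8% of all genes tested.

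Per length of transcript, cytosolic synthetase mRNAs were the more abundant ones. In siControl they ran from 18.4 to 327 FPKM with a median of 84.6 FPKM, and the mitochondrial ones from 2.45 to 35.0 FPKM with a median of 10.5 FPKM. SARS1 for serine stood highest with 325, 338 and 318 FPKM, followed by GARS1 for glycine with 305, 312 and 324 FPKM, and their ranges overlapped. WARS1 followed with 252, 252 and 248 FPKM, below both. In siPSF, SARS1 stood at 285, 300 and 261 FPKM and GARS1 at 313, 309 and 319 FPKM, so GARS1 was then the highest. WARS1 stood at 211, 217 and 173 FPKM in siPSF.

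At the low end, WARS2 stood at 2.37, 2.22 and 2.77 FPKM in siControl and at 2.61, 2.08 and 2.93 FPKM in siPSF, with overlap. MARS2 stood at 3.40, 3.32 and 3.22 FPKM in siControl and at 3.65, 3.58 and 3.81 FPKM in siPSF, a small shift without overlap (log2 0.23 on counts, adjusted p = 0.16, edgeR). FARS2 stood at 5.18, 6.32 and 5.45 FPKM in siControl and at 4.03, 4.73 and 3.86 FPKM in siPSF. The FARS2 groups did not overlap, and limma on FPKM called it lower (adjusted p = 0.039 with a pseudocount of 0.5), as it did WARS1 (adjusted p = 0.033), while edgeR on counts called neither. In the control values FARS2 overlapped with the next gene in the order, YARS2 (5.80 FPKM on average).

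For 17 pairs of a cytosolic gene and its mitochondrial counterpart, the cytosolic level per length was 1.29 to 102 times the mitochondrial level in siControl, with a median of 7.37. The widest gap was between WARS1 and WARS2 and the narrowest between HARS1 and HARS2.

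Among the pairs with a called gene, the asparagine pair moved most. NARS1 was 7.49, 7.37 and 8.03 times as abundant per length as NARS2 in siControl and 11.9, 11.7 and 11.2 times in siPSF. The groups did not overlap. NARS1 had a log2 fold change of 0.25 on counts and NARS2 one of -0.32. In the cysteine pair the ratio of CARS1 to CARS2 went the other way, from 3.46, 3.25 and 3.18 to 2.71, 2.61 and 2.52, with CARS1 at a log2 fold change of 0.04. For RARS1 and RARS2, whose ratio was 2.03, 2.28 and 2.28 in siControl and 2.40, 2.36 and 2.39 in siPSF, both partners had positive fold changes (0.33 and 0.21). The ratio of EPRS1 to EARS2, the mitochondrial glutamate enzyme (log2 0.04), was 6.57 in siControl and 7.74 in siPSF with overlap, and that of EPRS1 to PARS2, the mitochondrial proline enzyme (log2 0.19), was 10.3 and 10.99, also with overlap.

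Over the 17 pairs, the 3 siPSF ratios lay above the 3 siControl ratios in 4 pairs and below them in 5 pairs. In each of these 9 pairs the two-sided exact permutation test on the log2 ratios gave p = 0.1, the smallest that 3 against 3 libraries allow, and 0.19 after adjustment over the 17 pairs, so no ratio could pass the threshold. That p follows from the lack of overlap itself and adds nothing to it. A share of ratios without overlap over other pairs of genes was not computed, while 34.4% of all single genes tested did not overlap in CPM. EPRS1 and FARS2 each enter more than 1 pair.

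**Figure D3:**
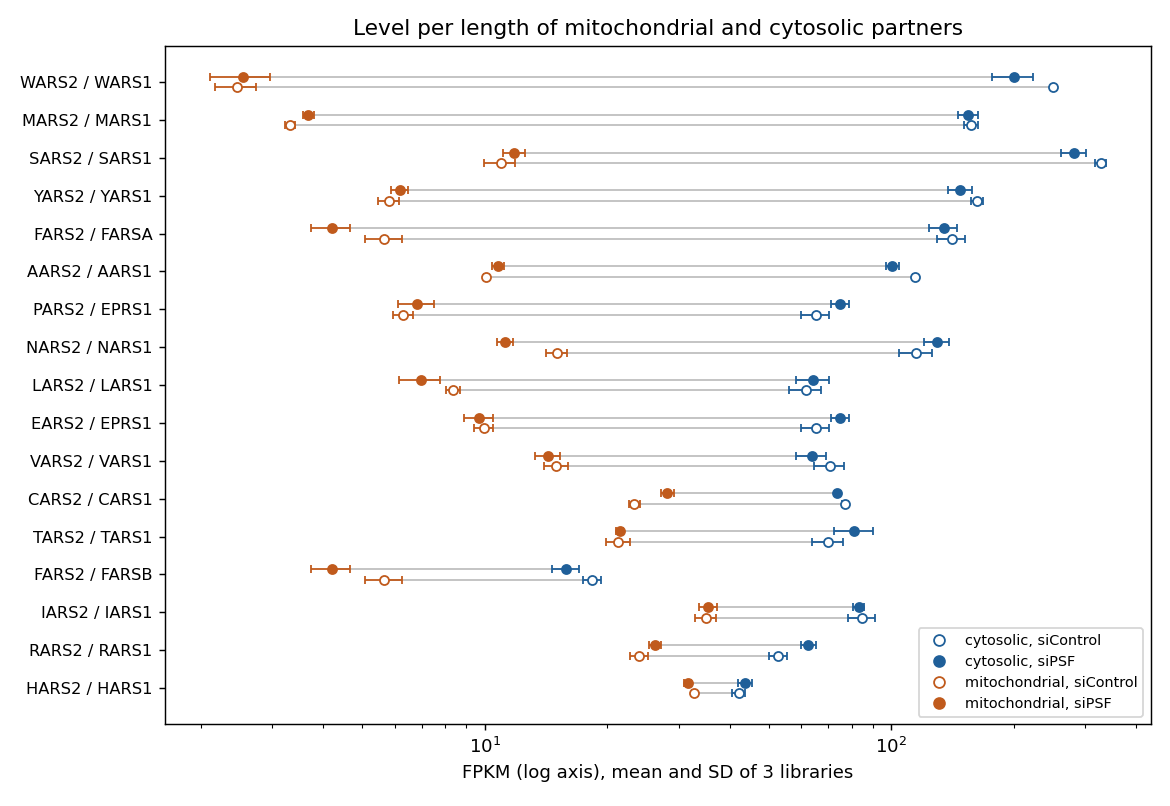
Mean FPKM with SD of 3 libraries (x axis, log scale) of each cytosolic gene (blue) and its mitochondrial counterpart (orange), with open points for siControl and filled points for siPSF, ordered by the ratio in siControl. In each of the 17 pairs the cytosolic gene is the higher one in both groups, from 1.29-fold for the histidine pair at the bottom to 102-fold for the tryptophan pair at the top in siControl.

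Gene length moved with the fold changes of these libraries. Of the 2770 protein-coding genes that reach 100 kb, 695 (25.1%) were called lower and 74 higher, with a median log2 fold change of -0.17. Among the 11648 shorter protein-coding genes, 541 were called lower and 896 (7.69%) higher, with a median of 0.05. Of the 35 synthetase genes, 4 reach 100 kb, and these are mitochondrial: FARS2 (522 kb, log2 -0.29), LARS2 for leucine (161 kb, -0.17), NARS2 (139 kb, -0.32) and WARS2 (109 kb, 0.14). Of these 4, NARS2 was called lower and the groups of FARS2, LARS2 and NARS2 did not overlap, with siPSF below. Among the 2770 protein-coding genes of that length, 1099 had groups that did not overlap with siPSF below. The median over the 4 was -0.23. In the bin of 100 to 200 kb, the quartiles of protein-coding genes were -0.31 and 0.06. NARS2 lay just below these quartiles, LARS2 between them and WARS2 above them. In the bin of 200 kb or more the quartiles were -0.64 and -0.05, and FARS2 lay between them.

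The 12 shorter mitochondrial genes had 1 call, the rise of CARS2, and a median of 0.15. With genes under 100 kb only, the mitochondrial median stood 0.11 above the cytosolic one. QARS1, at 0.66, was above the upper quartile of 0.27 of protein-coding genes under 10 kb, and CARS2 and EPRS1, which are 72.1 and 77.9 kb long, were above the upper quartile of 0.15 in their bin of 50 to 100 kb, where the median was -0.01. The part of gene length in the change of any single gene was not tested.

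**Figure D4:**
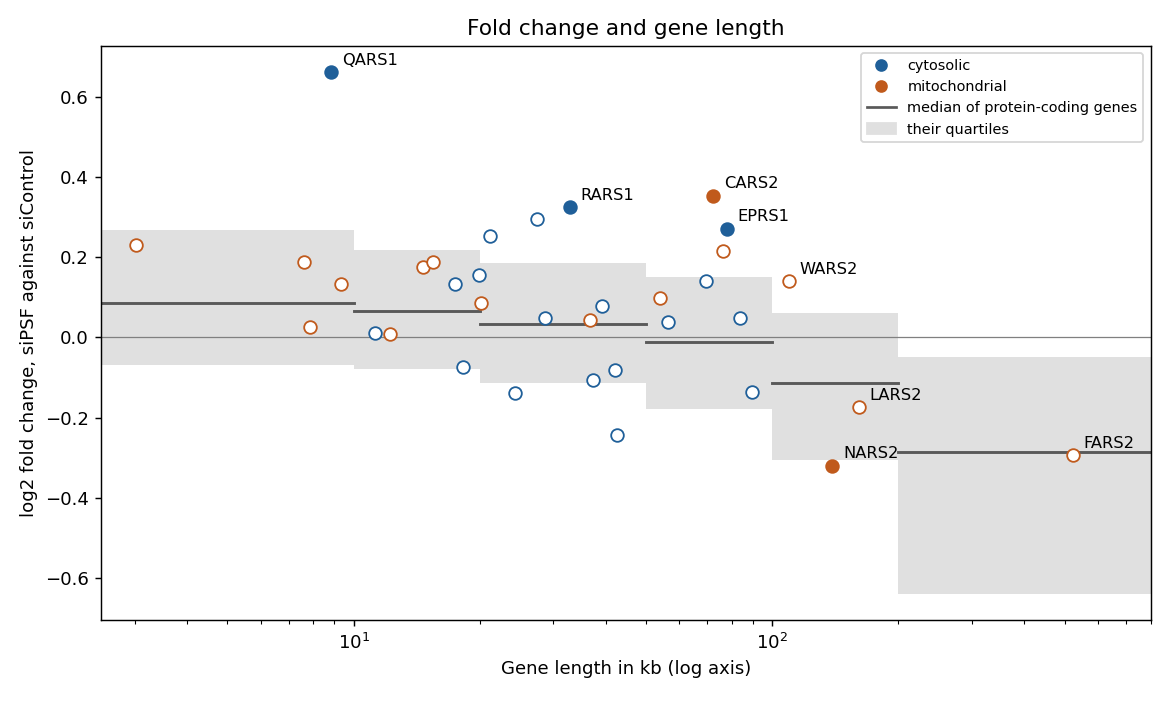
Log2 fold change (y axis) against gene length in kb (x axis, log scale) for 35 synthetase genes, cytosolic in blue and mitochondrial in orange, filled where called. Grey lines and bands are the median and quartiles of protein-coding genes in 6 bins of length, falling from 0.08 under 10 kb to -0.29 at 200 kb or more, and QARS1 stands highest above its band.

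Many cytosolic synthetase genes belong to the amino acid response, in which the transcription factor ATF4 binds a composite element near their starts. The letters TGATGNAA, or TTNCATCA on the other strand, the core of that element, were searched in the RefSeq promoter windows of GRCh38.p14, from 250 bases before to 50 after each annotated start. Windows were found for 30 of the 35 genes, and those for AARS2, LARS1, VARS1, VARS2 and YARS1 were not found. The letters occurred in 8 of the 30 genes (26.7%), namely 7 of 16 cytosolic (43.8%) and 1 of 14 mitochondrial genes (7.14%), against 2.82% of the 11732 protein-coding genes tested that have a window. The stretches are shown because they place the same letters in genes for different amino acids. Each is 30 bases, 5′ to 3′ on the strand that reads TGATGNAA, with the matched letters in capitals:

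TARS1, chr5:33440956-33440985, minus strand: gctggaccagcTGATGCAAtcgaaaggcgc

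NARS1, chr18:57621804-57621833, minus strand: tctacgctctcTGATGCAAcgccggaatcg

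YARS2, chr12:32756076-32756105, minus strand: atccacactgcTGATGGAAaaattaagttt

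AARS1, chr16:70289675-70289704, plus strand: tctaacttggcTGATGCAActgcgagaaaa

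GARS1, chr7:30594834-30594863, minus strand: ggctcggagcaTGATGAAAtcgccgcgtaa

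MARS1, chr12:57488053-57488082, minus strand: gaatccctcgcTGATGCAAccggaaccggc

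IARS1, chr9:92293692-92293721, plus strand: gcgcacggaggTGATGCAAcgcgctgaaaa

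CARS1, chr11:3057407-3057436, plus strand: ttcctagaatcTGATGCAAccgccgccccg

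The first 3 genes were picked by their p, and the other 5 were added after their values were seen. Of the 8, 6 carry TGATGCAA exactly, letters that 0.759% of protein-coding genes tested hold in a window. None of the 8 genes was called by edgeR with all libraries and no block, although TARS1 and NARS1, the nearest to the threshold, had an unadjusted p under 0.05. TARS1 was called higher by DESeq2's Wald test and by edgeR without siPSF replicate 2 or with the replicate number as a block (adjusted p = 0.033), and on rescaled FPKM limma called AARS1 and CARS1 lower. Their median log2 fold change was 0.06. The 22 genes with a window but without the letters held 4 higher calls and 1 lower call, with a median of 0.12. Over all genes tested, 6.65% were called higher and 8.27% lower, so few calls or none are common among 8 genes. The difference between the sets with and without the letters was not tested. A match is a description of the letters only.

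ATF4 mRNA itself stood at 433, 451 and 406 CPM in siControl and at 510, 528 and 529 CPM in siPSF (log2 0.28, SE 0.08, adjusted p = 0.036, edgeR), without overlap, but the call was lost without any 1 of the 6 libraries (highest adjusted p = 0.10, edgeR). Of 20 genes listed as ATF4 targets outside the synthetases, 0 were higher and 1 was lower in edgeR, 3 had an unadjusted p under 0.05, and the median was -0.05. Over all genes tested, 6.65% were called higher and 8.27% lower, 29.8% had an unadjusted p under 0.05, and the median was 0.01. For the 20 genes, DESeq2's Wald test gave the same numbers of calls as edgeR. Of the 20, limma called 0 higher and 2 lower on FPKM. On rescaled FPKM it called 0 higher and 7 lower, where 3409 of all 14827 genes were called lower. Without siPSF replicate 3, edgeR called 2 of the 20 lower. The gene that fell was ATF3, a stress-induced transcription factor, with 121, 109 and 102 CPM in siControl and 86.4, 84.5 and 70.4 CPM in siPSF (log2 -0.46, SE 0.10, adjusted p = 0.0093, edgeR).

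HARS1 and HARS2, the cytosolic and mitochondrial histidine enzymes, start head to head on chromosome 5 with 84 bases between their first bases, so that both read out of 1 short stretch. This stretch, chr5:140691371-140691454 (GRCh38.p14, plus strand, HARS2 to the right), carries the letters CCGGAAGT, a core bound by ETS factors, once on each strand, shown in capitals:

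HARS1 to HARS2: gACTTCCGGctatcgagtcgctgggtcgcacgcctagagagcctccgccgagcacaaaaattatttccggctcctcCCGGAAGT

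These letters were chosen after the sequence was seen. They occurred in a window of 8 of the 30 genes (26.7%) and of 9.16% of the protein-coding genes tested. HARS1 and HARS2, whose windows both hold this stretch, are among the 8, so their matches were fixed by that choice. Of the 17 pairs this one had the ratio nearest to 1, with HARS1 at 42.2 ± 1.55 FPKM and HARS2 at 32.7 ± 0.360 FPKM in siControl (SD, n = 3). Neither was called, with log2 fold changes of 0.13 for HARS1 and 0.03 for HARS2, and their ratio of 1.29 in siControl and 1.38 in siPSF overlapped between the groups.

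Other genes around tRNA charging were taken from a list of 32. Of these, 1 rose, 1 fell and 30 did not pass the test, with a median log2 fold change of 0.12. Over all genes tested, 6.65% were called higher and 8.27% lower, with a median of 0.01. Of the 32, DESeq2's Wald test called 4 higher and 2 lower, against 1586 higher and 2058 lower over all genes. On rescaled FPKM limma called 1 higher and 3 lower, where 463 and 3409 of all 14827 genes were called higher and lower. In edgeR the 32 genes gave 3 higher and 2 lower calls without siPSF replicate 3 and no call without siControl replicate 2. They gave 1 call without siControl replicate 1, siControl replicate 3 or siPSF replicate 1. GFM2, which helps to split mitochondrial ribosomes after termination, rose from 42.9, 41.3 and 45.4 CPM to 55.5, 52.9 and 52.6 CPM (log2 0.31, SE 0.08, adjusted p = 0.027, edgeR). EEFSEC, the elongation factor for selenocysteine and a gene of 273 kb, fell from 40.1, 39.3 and 35.8 CPM to 28.6, 31.4 and 18.3 CPM (log2 -0.55, SE 0.16, adjusted p = 0.036, edgeR). The calls of GFM2 and EEFSEC held in 2 and 3 of the 6 fits without a library. GATB, GATC and QRSL1, which form the amidotransferase that makes mitochondrial glutaminyl-tRNA in place of a QARS1 counterpart, had log2 fold changes of -0.05, 0.14 and 0.19 and did not pass the test, while QARS1 rose.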

How the data were processed

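From total RNA of SH-SY5Y cells, poly(A)-selected libraries were made and sequenced, 3 for siControl and 3 for siPSF, called biological triplicates in the study. The p-values measure the spread between these libraries. The authors deposited 1 table with, for each gene in each library, an unnormalized read count and the FPKM (RPKM in the authors' methods). The methods name TopHat, hg38 and RefSeq and a TruSeq RNA kit, whereas the submitters' processing notes list Trimmomatic, HISAT2 2.1.0, StringTie 2.1.3b and GRCh38 and the labels a stranded kit; which made the table, and whether counting used strand, is not given in the sources used here. The lowest count is 1, so a gene that lacks reads in any library is not analysed here. The number of per-sample columns left unused is 0.

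Genes were filtered with edgeR's filterByExpr (19694 left), scaled by TMM (factors 0.964 to 1.053) and compared by the quasi-likelihood F-test of edgeR with no block on the replicate number, after the code was tested on simulated data. Adjusted p-values are Benjamini-Hochberg values over all genes tested, called under 0.05. The biological coefficient of variation was 12.6%. Between replicate libraries, chi-square divided by its degrees of freedom was at least 22.6, so no pair was alike within sampling noise. Members and lists were chosen with earlier results of these data known. Some genes that the rule selects are not reported here and enter no count, sum or median over synthetases, while tests ran on all genes. Full values are given for called members, their partners, and the 3 highest and 3 lowest genes. Alternatives were DESeq2's size factors and Wald test, no filter, limma on log2(FPKM + 0.5) or with 0.1 for genes with a mean FPKM of at least 0.5, the same on FPKM rescaled to 1 sum per library, genes under 100 kb, a block and leaving out each library; their use on the lists beside the synthetases was added after the data were seen. Fold changes on FPKM are on the log2(value + pseudocount) scale. Positions came from RefSeq (GRCh38.p14), matched by gene ID for 97.8% of genes. Software was DESeq2 1.42.0, limma 3.58.1 and edgeR 4.0.16 in R 4.3.3, and scipy 1.17.1, numpy 2.4.6, matplotlib 3.10.9 and pandas 2.3.3 in Python 3.11.15.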

Additional observations from a re-analysis of the deposited data

How the results depend on the processing

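Leaving out 1 library at a time gave 2 to 4 called synthetase genes (5 with all libraries), 1 to 3 cytosolic, 0 to 2 mitochondrial, 1 to 4 genes of the complex with its scaffold, 0 to 5 other tRNA charging genes, 1 to 2 ATF4 targets, 1500 to 3140 genes in all, a mitochondrial median of 0.0787 to 0.126 and a mitochondrial minus cytosolic median of 0.0016 to 0.0606. With genes under 100 kb only, 1 mitochondrial gene was called, with a median of 0.155 and a difference of 0.106. DESeq2's Wald test called 6 other tRNA charging genes (4 higher, 2 lower) and no filter on low counts 1. On FPKM with pseudocounts of 0.1 and 0.5, 2 genes of the complex and 2 ATF4 targets were called, the cytosolic median was -0.025, the mitochondrial median 0.030 and 0.028, CARS1 stood at -0.0660 and -0.0656 and EARS2 at -0.040 and -0.039. On rescaled FPKM, 11 synthetase genes, 8 cytosolic genes, 2 genes of the complex, 4 other tRNA charging genes and 7 ATF4 targets were called, the medians were -0.139 and -0.077, and CARS1 turned from 0.04 to -0.179, EARS2 from 0.04 to -0.148, PARS2 from 0.19 to -0.0062, GARS1 from 0.08 to -0.114 and WARS2 from 0.14 to -0.061, all 7 ATF4 targets being lower. The cause was not tested in any of these. Among 208 values of named members under alternatives, 171 kept their direction and side of the threshold, 20 were weaker, 7 stronger and 10 reversed, EARS2 also without siPSF replicate 2 (-0.021 to 0.077 without 1 library each). With the replicate number as a block, 6 synthetase genes and 3029 genes in all were called, TARS1 being the addition (adjusted p = 0.033, edgeR); same-numbered libraries correlated at -0.045, 0.203 and 0.098 in their deviations, and siControl 1 correlated best with siPSF 2, so the numbers were not taken as pairs. Each member had at least 735 counts in every library, and the part of depth was not tested.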
